A study of Homo sapiens with 6 samples.

Results

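Genes on the short arm of human chromosome 20 were compared with genes on its long arm in PBRT15, PBRT16 and parental 1205LuTR melanoma cells. Members were the protein-coding genes that start at 0.27 to 6.04 Mb on the short arm or at 36.09 to 62.39 Mb on the long arm (GRCh38) and whose mean over all 6 libraries was at least 150. Collagen, ribosomal protein and ATP synthase genes and a short list of named genes were left out. This gave 48 short arm and 113 long arm members, 161 of 60617 gene IDs in all. The intervals had been selected on the fold changes of these same libraries against parental cells, and the level on their mean value, so every difference of an arm between the lines is given as a description, with no test of the arm.

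PBRT15 and PBRT16 are lines derived from 1205Lu tumors resistant to PLX8394, a "paradox breaker" designed to inhibit mutant BRAF without activating ERK signaling through RAF dimers, and both were labelled resistant. They were sequenced in 500 nM PLX8394, with 2 libraries each. The 2 parental libraries were from drug-sensitive 1205LuTR cells in DMSO, a version of the melanoma line 1205Lu modified with a GAL4-ELK1 reporter, and all lines were grown in the same medium. Each PBRT line is named for a single resistant tumor, no library of a PBRT line without drug was used here, and so line and drug cannot be told apart. The sources used here do not say that replicates were separate cultures, so their spread may be technical.

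Genes on the same chromosome arm can share their DNA copy number and their neighborhood. A gain or loss of a whole arm raises or lowers the template of all its genes at once. The long arm of chromosome 20 is gained in many cancers and carries cell cycle and transcription regulators such as AURKA, UBE2C, NCOA3 and ZNF217. The short arm segment carries genes of many kinds, among them PCNA, CDC25B and the prion protein gene PRNP. These libraries measured RNA alone. The copy number of neither arm was measured, and its part in any result was not tested.

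Values were normalized expression values that the authors deposited, 1 per gene and library, with library totals of 27877963 to 29580752. The share of mitochondrial transcripts was 4.09 to 4.53% in the PBRT libraries and 6.15 to 6.30% in the parental libraries. Of the 9 melanocyte lineage markers, TYR was at 0 in every library and PMEL, MLANA, DCT and TYRP1 did not exceed 29.4 in any, so that these pigment cell markers were at or near 0 in all lines. MITF, the master transcription factor of the lineage, rose in both PBRT lines, at 824 and 927 in PBRT15 and 2209 and 2159 in PBRT16, against 109 and 113 in parental cells. SOX10 was at 0 and 0.791 in PBRT15 and 1.495 and 0.778 in PBRT16, against 4360 and 4103 in parental libraries, and S100B and MIA were likewise high in parental cells alone. Of 7 fibroblast markers, 6 rose in PBRT15. PBRT16 had 3 that rose and 2 that fell. Their sum was 116800 and 127000 in PBRT15, 18770 and 25090 in PBRT16 and 6944 and 6021 in parental cells, with LUM at no more than 4.13 everywhere. Of 5 leukocyte markers, PTPRC, CD3E, CD14 and LYZ stayed at or below 5.17 in every library, and CD68, a lysosomal protein that other cells also make, rose in both PBRT lines, at 2722 and 2194 in PBRT15 and 2146 and 3118 in PBRT16, against 819 and 1260 in parental cells. The 3 endothelial markers summed to 5.75 to 33.0 in the PBRT libraries and 9.18 and 26.9 in the parental libraries, with 1 fall, of VWF in PBRT15. The 3 keratinocyte markers summed to 282 to 359 in the PBRT libraries and 359 and 346 in the parental libraries, nearly all of it KRT10, and KRT14 fell in both PBRT lines. The part of these marker shifts in the results on chromosome 20 was not tested.

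The regions around the start sites of 4 members are shown because they belong to genes whose values separated the lines on each arm and because they differ widely in base composition within an arm. PSMF1 and CDC25B lie on the short arm, and TOP1 and ZMYND8 on the long arm. The choice was made with their values known. Each sequence runs 5′ to 3′ on the gene's strand from 250 bases before to 50 bases after the RefSeq start (GRCh38.p14), with every GC box (GGGCGG or its complement CCGCCC) in capitals.
PSMF1, plus strand, chr20:1113013-1113312: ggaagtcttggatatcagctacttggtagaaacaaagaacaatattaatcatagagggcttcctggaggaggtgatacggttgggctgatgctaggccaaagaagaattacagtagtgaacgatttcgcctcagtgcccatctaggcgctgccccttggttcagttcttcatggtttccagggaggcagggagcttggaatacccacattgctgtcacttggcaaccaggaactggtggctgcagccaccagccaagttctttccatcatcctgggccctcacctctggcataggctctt
CDC25B, plus strand, chr20:3786701-3787000: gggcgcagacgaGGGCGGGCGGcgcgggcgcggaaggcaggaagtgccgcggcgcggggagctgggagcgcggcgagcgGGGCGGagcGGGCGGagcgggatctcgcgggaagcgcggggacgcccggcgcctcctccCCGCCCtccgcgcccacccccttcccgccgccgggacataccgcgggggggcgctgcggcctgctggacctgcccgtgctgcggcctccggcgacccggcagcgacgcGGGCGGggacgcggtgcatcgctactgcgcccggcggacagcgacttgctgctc
TOP1, plus strand, chr20:41028572-41028871: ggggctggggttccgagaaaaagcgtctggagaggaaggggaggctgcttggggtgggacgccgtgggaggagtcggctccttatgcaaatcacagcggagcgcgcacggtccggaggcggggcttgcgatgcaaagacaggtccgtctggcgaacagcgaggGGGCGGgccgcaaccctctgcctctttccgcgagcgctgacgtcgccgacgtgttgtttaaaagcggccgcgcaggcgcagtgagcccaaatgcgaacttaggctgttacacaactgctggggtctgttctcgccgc
ZMYND8, minus strand, chr20:47356650-47356949: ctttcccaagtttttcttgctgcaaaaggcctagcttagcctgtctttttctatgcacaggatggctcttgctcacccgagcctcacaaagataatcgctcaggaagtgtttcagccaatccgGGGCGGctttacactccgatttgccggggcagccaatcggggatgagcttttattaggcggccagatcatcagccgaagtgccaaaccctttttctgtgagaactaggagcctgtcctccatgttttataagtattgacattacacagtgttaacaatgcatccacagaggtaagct

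The PSMF1 window was 51.0% G and C with 4 CpG dinucleotides and no GC box, and the CDC25B window was 81.3% G and C with 53 CpG dinucleotides and 6 GC boxes, some of which overlap. TOP1 had 64.7% and ZMYND8 had 48.3% G and C, with 1 GC box each. The genes shown were picked partly because they differ in base composition, so this difference says nothing about the other members. A RefSeq start region was matched by symbol for 36 of 48 short arm and 95 of 113 long arm members. The median G and C content was 71.8% on the short arm and 67.7% on the long arm, against 65.7% for all protein-coding genes at the same minimum level and 58.3% for all start regions. The GC box was found in 31 short arm windows (86.1%) and 67 long arm windows (70.5%), against 72.4% for protein-coding genes at that level and 44.6% for all start regions. The AP-1 site (TGACTCA or TGAGTCA) was found in 0 short arm windows and 1 long arm window (1.05%), against 2.67% at that level. The CCAAT box (CCAAT or ATTGG) was in 36.1% of short arm and 31.6% of long arm windows, against 36.6%, and the ETS site (CCGGAAG or CTTCCGG) in 30.6% and 23.2%, against 20.9%. These are matches of letters on both strands, not binding sites.

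Short arm members were higher and long arm members lower in both PBRT lines than in parental cells. The summed value of the 48 short arm members was 145697 and 137988 in PBRT15, 124496 and 129043 in PBRT16, and 86205 and 89024 in parental cells. The summed value of the 113 long arm members was 332077 and 327856 in PBRT15, 324575 and 325172 in PBRT16, and 424108 and 428206 in parental cells. On neither arm did the libraries of a PBRT line overlap those of parental cells. The short arm sum over the long arm sum was 0.439 and 0.421 in PBRT15 and 0.384 and 0.397 in PBRT16, against 0.203 and 0.208 in parental cells.

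A sum is led by the genes with the highest values, so each member's log2 value was also set against its own mean over the 6 libraries. The median short arm member was 0.27 and 0.30 above its mean in PBRT15 and 0.10 and 0.16 above it in PBRT16, against −0.49 and −0.41 in parental cells. The median long arm member was at −0.15 and −0.18 in PBRT15 and at −0.10 and −0.13 in PBRT16, against 0.30 and 0.33 in parental cells. The pooled SD between replicates of these medians was 0.043 for the short arm and 0.018 for the long arm. The gap between the arms was 0.42 and 0.48 in PBRT15 and 0.20 and 0.30 in PBRT16, against −0.79 and −0.74 in parental cells, with a pooled SD of 0.051.

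**Figure D1:**
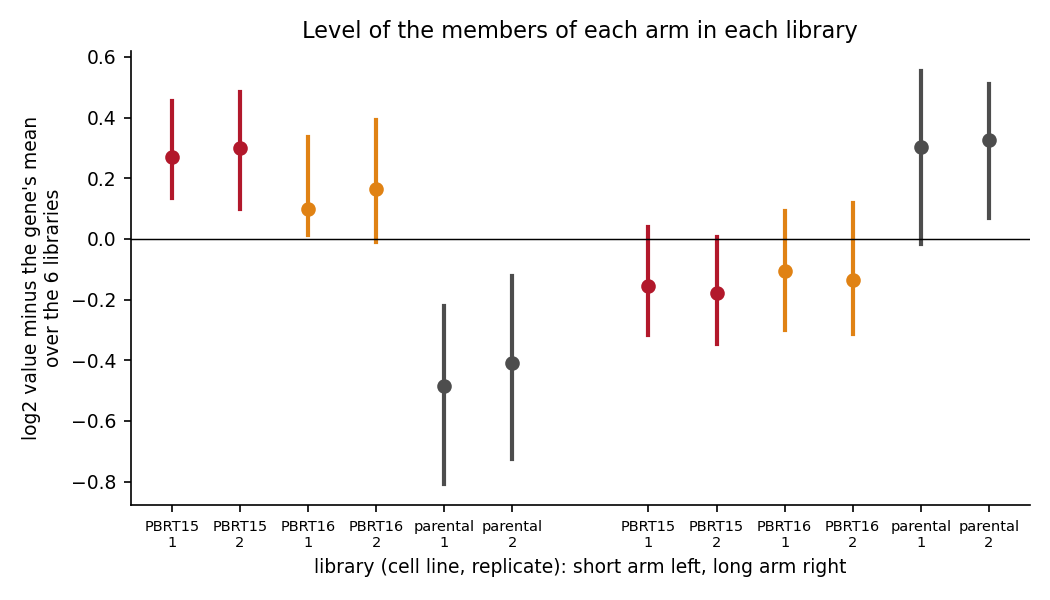
Level of the members of each arm in each library, as log2 value minus the gene's mean over the 6 libraries. Points are medians over the 48 short arm members (left block) or the 113 long arm members (right block), and bars run between the quartiles. All 4 PBRT medians lie above both parental medians on the short arm and below both on the long arm.

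Fold changes were fitted with limma on log2(value + 1) over all 16555 genes that passed a filter on low values, and a gene was said to have risen or fallen where its p, adjusted over all these genes by the Benjamini-Hochberg method, was at most 0.05. All 161 members passed the filter. The median log2 fold change of short arm members was 0.71 in PBRT15 against parental cells (a fold of 1.64) and 0.54 in PBRT16 against parental cells (1.45). The median of long arm members was −0.50 in PBRT15 (a fold of 0.706) and −0.37 in PBRT16 (0.772). Over all genes tested, the median was −0.01 in PBRT15 and −0.002 in PBRT16. Both comparisons use the same parental libraries, so they are not independent of each other.

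Of the 48 short arm members, PBRT15 had 30 that rose, 1 that fell and 17 that did not pass. PBRT16 had 29 that rose, 0 that fell and 19 that did not pass. The background over all genes tested was 21.6% higher and 19.5% lower in PBRT15, and 21.1% higher and 19.0% lower in PBRT16. Of the 113 long arm members, PBRT15 had 61 that fell, 11 that rose and 41 that did not pass. PBRT16 had 48 that fell, 14 that rose and 51 that did not pass. The rule used these contrasts, so nothing is read from these counts. Most members changed by no more than 2-fold. On the short arm, 20 members were more than 2-fold higher in PBRT15 and 15 in PBRT16. On the long arm, 17 were more than 2-fold lower in PBRT15 and 19 in PBRT16, and 8 were more than 2-fold higher in PBRT15 and 7 in PBRT16. Over all genes tested, the quartiles of log2 fold change were −0.48 and 0.58 in PBRT15 and −0.47 and 0.58 in PBRT16. Leaving out any single library of a comparison lowered some counts by over 1.5 times: the 61 long arm falls in PBRT15 became 37 and 32 without PBRT15 replicate 1 or 2 and 28 and 32 without parental replicate 1 or 2. In PBRT16 the 29 short arm rises became 19 and 18 without PBRT16 replicate 1 or 2 and 19 without parental replicate 1, the 14 long arm rises became 7 or 8 without any single library of that comparison, and the 48 long arm falls became 31 without PBRT16 replicate 2 and 30 without parental replicate 1.

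Counted by overlap alone, 41 short arm members had both PBRT15 libraries above both parental libraries and 1 had both below, and the PBRT16 numbers were 34 and 5. Long arm members behaved in the opposite way by count, and 82 had both PBRT15 libraries below both parental libraries and 21 had both above, and the PBRT16 numbers were 79 and 22. Of all genes tested, 37.0% were separated upward and 37.9% downward in PBRT15, and 37.7% upward and 38.4% downward in PBRT16. In both PBRT lines, 26 short arm members rose and 0 fell, and 44 long arm members fell and 9 rose. Over all genes tested, 14.6% rose in both lines and 12.9% fell in both. The 2 long arm members that moved in opposite directions in the lines were TGM2 and SDC4. Of the 16555 genes tested, 130 were called in opposite directions.

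**Figure D2:**
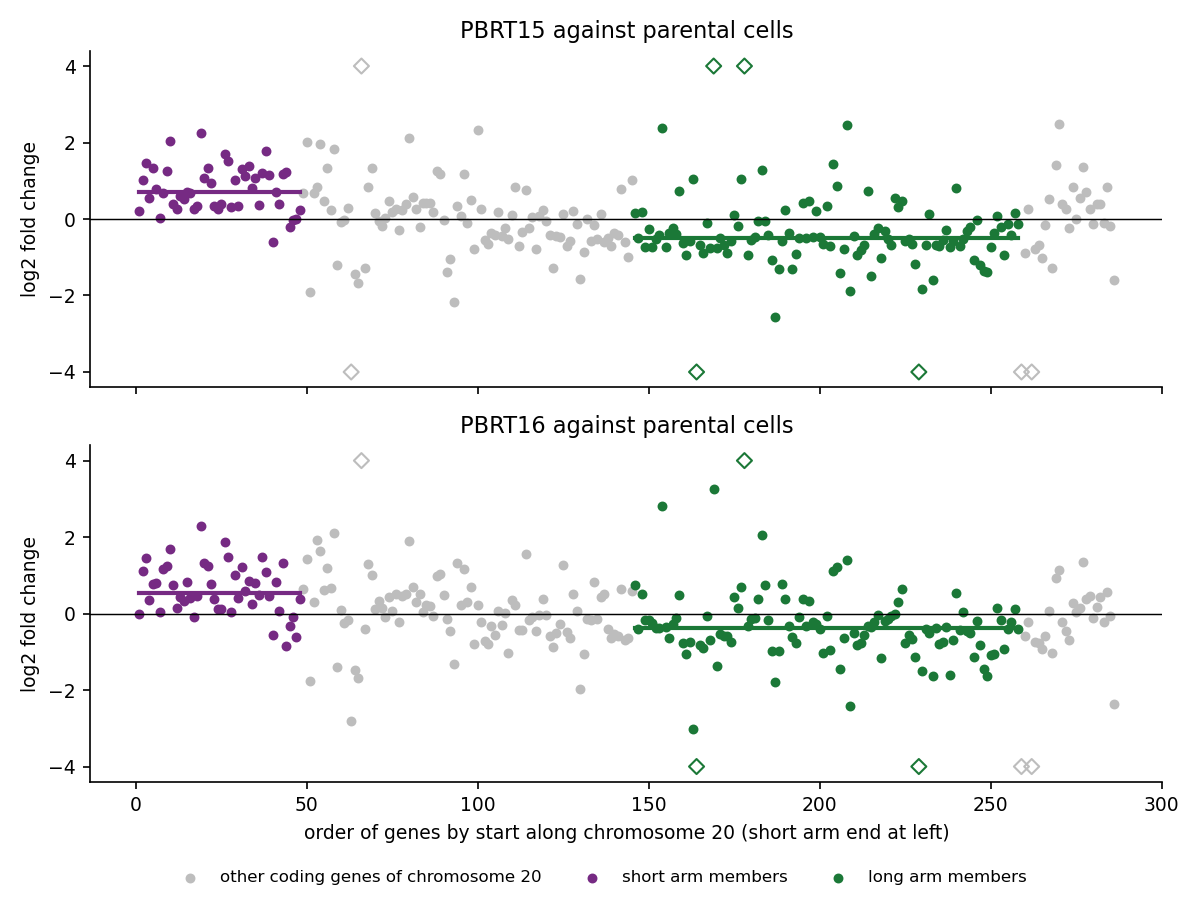
Log2 fold change of protein-coding genes of chromosome 20 in PBRT15 (top) and PBRT16 (bottom) against parental cells, in order of their start along the chromosome. Horizontal lines mark the member medians, 0.71 and 0.54 on the short arm and −0.50 and −0.37 on the long arm, and open diamonds mark genes beyond 4 in either direction, drawn at the edge.

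Along the short arm interval, most blocks of neighboring members had positive medians. The interval was selected on these fold changes, so the medians are only a description. In successive blocks of 6 members, from ZCCHC3 and TBC1D20 at the arm's end to RNF24 and PCNA, the first 7 medians were 0.54 to 1.10 in PBRT15 and 0.41 to 1.00 in PBRT16. The block nearest the interval's inner end, from CDS2 at 5.127 Mb to CRLS1 at 6.006 Mb, stood apart with medians of 0.12 in PBRT15 and −0.21 in PBRT16. It holds CDS2, which rose in both lines, beside TRMT6, MCM8 and CRLS1, which did not pass in either. GPCPD1, also in this block, rose in PBRT15 (1.23) and did not pass in PBRT16 (−0.85). MCM8 and CRLS1 each overlap the gene model ENSG00000286235, also a member, on the same strand, and elsewhere on the arm UBOX5 and FASTKD5 overlap each other, so reads may have been split between these genes and their values are uncertain.

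Along the long arm, 7 blocks of 16 or 17 members had medians of −0.68 to −0.34 in PBRT15 and −0.68 to −0.16 in PBRT16. The block from MOCS3 to VAPB was lowest in both lines, at −0.68 and −0.68. The block from OSER1 to SNX21 differed most between the lines, at −0.53 in PBRT15 and −0.16 in PBRT16. No block of the long arm had a median above 0 in either line, and no short arm block had a median below 0 in PBRT15. Both intervals were selected on these fold changes, so nothing is read from this.

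Genes of the chromosome outside the intervals, of the same minimum level, followed their arm less closely. The 50 genes of the short arm beyond the interval had a median of 0.27 in PBRT15 and 0.32 in PBRT16, and the 47 genes of the long arm before the interval had −0.41 and −0.28. The 28 genes of the long arm beyond the interval, toward its end, had 0.12 in PBRT15 and −0.16 in PBRT16. Inside the intervals, the 6 long arm genes that reached the minimum level but were left out by name had a median of −0.41 in PBRT15 and −0.48 in PBRT16. Tested genes of the intervals that are not protein-coding, of any level, were 8 on the short arm and 34 on the long arm. Their medians were 0.72 in PBRT15 and 0.47 in PBRT16 on the short arm, and −0.53 in PBRT15 and −0.53 in PBRT16 on the long arm. Of the 44 short arm and 96 long arm coding genes below the minimum level, 13 and 23 passed the filter on low values. The 13 short arm genes had a median of 2.05 in PBRT15 and 1.07 in PBRT16. The 23 long arm genes had a median of −0.13 in PBRT15 and 0.66 in PBRT16. The filter lets in a gene that is high in a single line. EDN3 was at 238 and 322 in PBRT15 and at 0 in every PBRT16 and parental library. A gene at 0 in parental cells cannot fall, so the medians of both sets depend on which genes passed the filter. Nothing is read from these medians. Of the 13 short arm genes, 4 had means of 50 to 150, and C20orf96 was at 171 and 170 in PBRT15 and 169 and 204 in PBRT16, against 97.3 and 79.1 in parental cells. FAM110A was at 148 and 85.8 in PBRT15 and 143 and 91.2 in PBRT16, against 56.3 and 81.6 in parental cells. Of the 9 long arm genes with such means, 3 had a positive fold change in PBRT15 and 4 in PBRT16, among them SALL4 at 175 and 172 in PBRT15 and 91.6 and 119 in PBRT16, against 28.4 and 15.4 in parental cells. PARD6B went the other way, at 13.2 and 15.3 in PBRT15 and 34.3 and 29.1 in PBRT16, against 202 and 127 in parental cells.

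The edges of the rule were as follows. EYA2, with a mean of 163, was the member nearest above the minimum level and C20orf96, with a mean of 148, the coding gene nearest below it. ZCCHC3 opened the short arm interval with a log2 fold change of 0.20 in PBRT15 and −0.001 in PBRT16, and FERMT1, just past its inner end, was at 207 and 217 in PBRT15 and 206 and 205 in PBRT16, against 125 and 141 in parental cells. EPB41L1 opened the long arm interval with a log2 fold change of 0.16 in PBRT15 and 0.76 in PBRT16, and SCAND1, just before it, was at 211 and 216 in PBRT15 and 149 and 169 in PBRT16, against 93.0 and 117 in parental cells. CABLES2 closed the long arm interval with −0.12 in PBRT15 and −0.39 in PBRT16. SLCO4A1, just past it, was at 12.5 and 12.6 in PBRT15 and 11.8 and 14.3 in PBRT16, against 1047 and 1813 in parental cells.

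**Figure D3:**
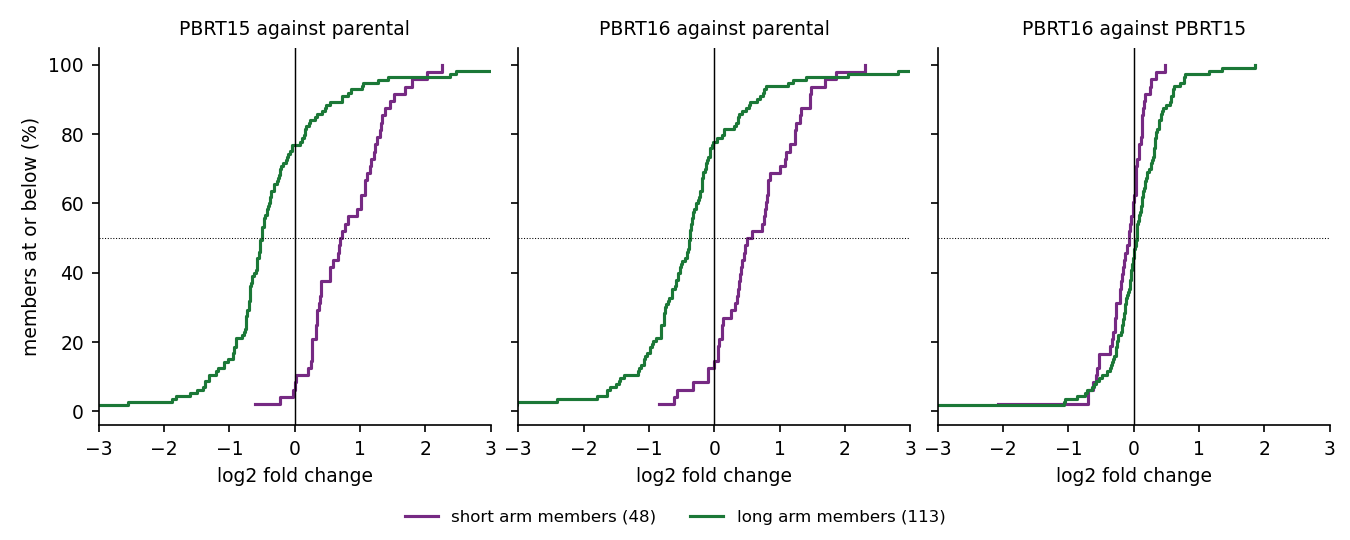
Cumulative share of members (in percent) at or below each log2 fold change, for the 48 short arm and the 113 long arm members, in PBRT15 against parental, PBRT16 against parental and PBRT16 against PBRT15. The curves stand apart in both comparisons with parental cells, crossing 50% at 0.71 and −0.50 in PBRT15 and at 0.54 and −0.37 in PBRT16, and lie close together between the PBRT lines, at −0.08 and 0.04.

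Set against whole chromosomes, the other 22 chromosomes with coding genes at this level had medians of −0.36 (chromosome 13) to 0.48 (chromosome 12) in PBRT15 and −0.36 (chromosome 13) to 0.18 (chromosome 22) in PBRT16. Chromosome 20 as a whole had −0.10 in PBRT15 and −0.11 in PBRT16, inside both ranges. An interval chosen for its shift can stand further out than a whole chromosome, so these ranges are only a frame for the arm medians.

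The members have many roles, and they are described by role below. Some names fall outside the naming rule and were picked with their values known. The lists of roles hold 121 of the 161 members, and a few genes stand in a list whose name fits them poorly: TBC1D20, a GTPase-activating protein for Rab proteins, and PFDN4, a prefoldin subunit, in RNA processing and translation, and AP5S1, an adaptor protein subunit, in ubiquitin and proteasome. The lists overlap: UBE2C, MYBL2, ADNP and TAF4 stand in several and are counted in each. As a background to every count by role, 21.6% of all genes tested were called higher in PBRT15 and 19.5% lower. The PBRT16 shares were 21.1% and 19.0%. Most lists are short, and their members come from intervals selected on these same contrasts. Nothing is therefore read from a count by role or from its difference between the arms.

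**Figure D4:**
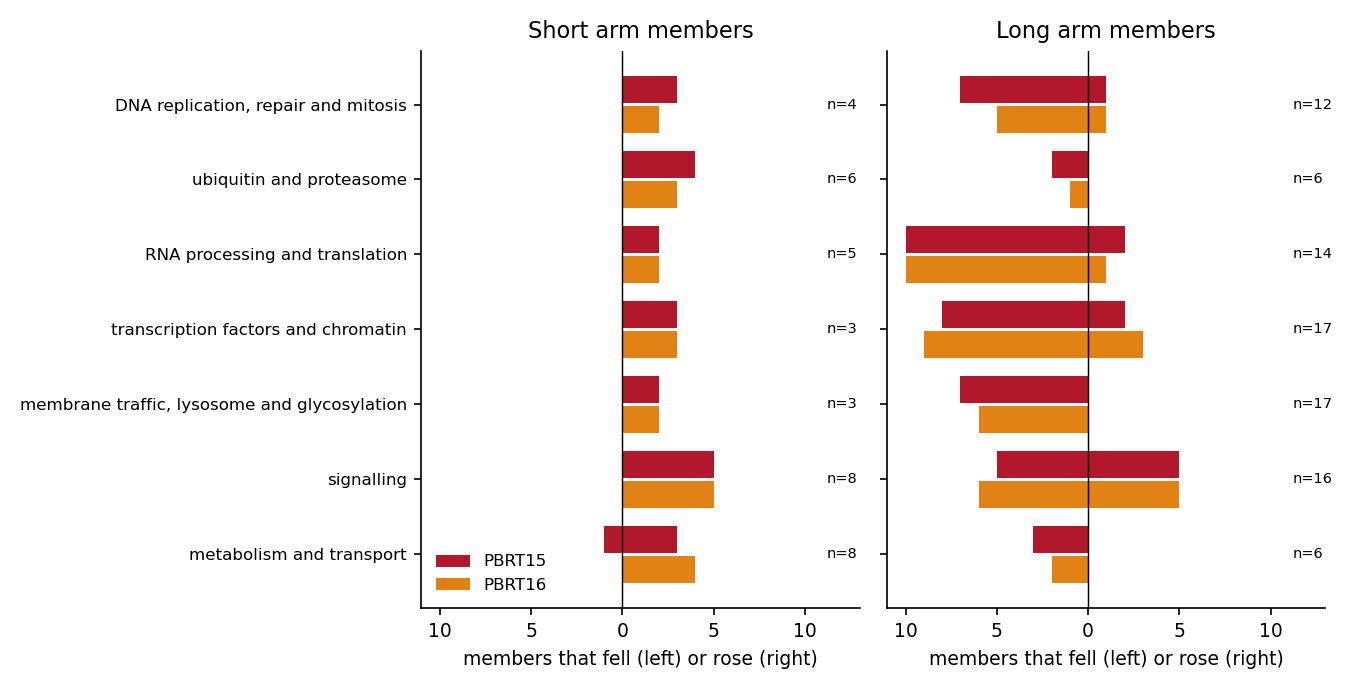
Members that fell (bars to the left) or rose (bars to the right) against parental cells by role, for PBRT15 and PBRT16, with short arm members at left, long arm members at right and n the members in each list. On the short arm the only fall is 1 metabolism and transport gene in PBRT15, and on the long arm falls exceed rises in each role except signalling, with 5 of each in PBRT15 and 6 falls beside 5 rises in PBRT16. The intervals were selected on these contrasts, so the bars are only a description.

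Of the 4 short arm members in DNA replication, repair and mitosis, 3 rose in PBRT15 and 2 in PBRT16. CDC25B, the phosphatase that activates cyclin-dependent kinases at entry into mitosis (chr20:3786772 start, plus strand), was at 6972 and 5830 in PBRT15 and 4812 and 4022 in PBRT16, against 2307 and 2578 in parental cells. It was thus higher in all 4 PBRT libraries, with log2 fold changes of 1.39 ± 0.17 and 0.85 ± 0.17 (SE, n = 2 per line). CENPB, which binds a repeated box in centromeric DNA, was at 4151 and 3399 in PBRT15 and 2626 and 2560 in PBRT16, against 1583 and 1901 in parental cells. PCNA, the sliding clamp of DNA polymerases, was at 6559 and 6295 in PBRT15 and 4982 and 5339 in PBRT16, against 4863 and 4982 in parental cells. PCNA rose in PBRT15 and did not pass in PBRT16, whose libraries met the parental range. MCM8, a helicase of DNA repair, had log2 fold changes of −0.03 ± 0.14 and −0.09 ± 0.14.

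The long arm has 12 members in this role. In PBRT15 they had 7 falls and 1 rise, and in PBRT16 5 falls and 1 rise. TOP1, the topoisomerase that relaxes DNA ahead of polymerases, was at 7455 and 6586 in PBRT15 and 4592 and 4567 in PBRT16, against 12156 and 11692 in parental cells. Its groups did not overlap, and it fell by 0.77 ± 0.12 in PBRT15 and by 1.38 ± 0.12 in PBRT16 on the log2 scale. CSE1L, the exporter that returns importin alpha to the cytoplasm, fell by 0.94 ± 0.16 and by 0.81 ± 0.16. TTI1, a partner of the large kinases of the mTOR and ATM family, fell by 0.94 ± 0.15 and by 1.07 ± 0.15. The exception was SAMHD1, which hydrolyses deoxynucleotides, at 997 and 719 in PBRT15 and 1661 and 778 in PBRT16, against 156 and 167 in parental cells.

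AURKA and UBE2C, a mitotic kinase and the ubiquitin-conjugating enzyme of the anaphase-promoting complex, varied widely between replicates. AURKA was at 5142 and 3238 in PBRT15 and 5004 and 2888 in PBRT16, against 6361 and 6962 in parental cells. UBE2C was at 2442 and 1646 in PBRT15 and 2790 and 1743 in PBRT16, against 3483 and 4036 in parental cells. All 4 PBRT libraries were below both parental libraries for each gene, the replicates of each PBRT line differed by over 0.5 on the log2 scale, and neither gene passed in either line. MYBL2, a transcription factor of cell cycle genes, had log2 fold changes of −0.18 ± 0.15 and 0.15 ± 0.15.

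In ubiquitin and proteasome, 4 of 6 short arm members rose in PBRT15 and 3 in PBRT16, with none falling. PSMF1, an inhibitor of the proteasome, was at 2627 and 2838 in PBRT15 and 2677 and 2724 in PBRT16, against 1063 and 1209 in parental cells. The PBRT lines were alike, with folds of 2.41 and 2.38. RBCK1, a subunit of the linear ubiquitin ligase complex, was at 1557 and 1736 in PBRT15 and 1110 and 1100 in PBRT16, against 653 and 642 in parental cells. RNF24, a RING finger protein, rose 2.31-fold in PBRT15 and 2.77-fold in PBRT16. Of 6 long arm members, 2 fell in PBRT15 and 1 in PBRT16. SPATA2, which links the deubiquitinase CYLD to the same ligase complex, fell in both, by 1.02 ± 0.16 and by 1.17 ± 0.16. PSMA7 and ADRM1, subunits of the proteasome, had log2 fold changes of −0.22 ± 0.13 and 0.16 ± 0.20 in PBRT15 and −0.18 ± 0.13 and 0.11 ± 0.20 in PBRT16, and neither passed.

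In RNA processing and translation, 2 of 5 short arm members rose in each line, SNRPB and TBC1D20. SNRPB, a core protein of the spliceosome, was at 7298 and 6228 in PBRT15 and 7654 and 6927 in PBRT16, against 3744 and 4480 in parental cells. NOP56, a core protein of nucleolar ribonucleoproteins that modify ribosomal RNA, was at 10924 and 8456 in PBRT15 and 7794 and 7129 in PBRT16, against 7748 and 8263 in parental cells, and did not pass. Of 14 long arm members, 10 fell in each line, and there were 2 rises in PBRT15 and 1 in PBRT16. STAU1, a protein that binds double-stranded RNA, was at 3553 and 3583 in PBRT15 and 3634 and 3718 in PBRT16, against 6229 and 6290 in parental cells. Its replicates lay close together, and it fell by 0.81 ± 0.10 and by 0.77 ± 0.10. SRSF6, a splicing factor, fell by 0.58 ± 0.12 and by 0.75 ± 0.12, and NELFCD, a subunit of the negative elongation factor, by 1.07 ± 0.16 and by 1.13 ± 0.16. PFDN4 was at 884 and 671 in PBRT15 and 767 and 730 in PBRT16, against 2338 and 2335 in parental cells. RBM38, an RNA-binding protein, went the other way and rose 1.75-fold and 1.46-fold.

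All 3 short arm members in transcription factors and chromatin rose in both lines. EBF4, of the early B cell factor family (chr20:2692780 start), was at 407 and 458 in PBRT15 and 445 and 446 in PBRT16, against 103 and 78.1 in parental cells. Its rise of 2.26 ± 0.17 and 2.30 ± 0.17 was the largest log2 fold change of the short arm members in each line. SOX12, of the SOX family, was at 871 and 946 in PBRT15 and 930 and 995 in PBRT16, against 464 and 432 in parental cells.

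The 17 long arm members of this role had 8 falls and 2 rises in PBRT15, and 9 falls and 3 rises in PBRT16. NFATC2, a calcineurin-regulated factor, was at 14.6 and 42.6 in PBRT15 and 97.8 and 88.5 in PBRT16, against 3021 and 1825 in parental cells. ZMYND8, a reader of histone marks, was at 2170 and 2215 in PBRT15 and 2123 and 2090 in PBRT16, against 5918 and 5681 in parental cells. TFAP2C, of the AP-2 family, was at 2826 and 3252 in PBRT15 and 1587 and 1725 in PBRT16, against 4963 and 5086 in parental cells. NCOA3, a coactivator of nuclear receptors, fell by 0.78 ± 0.12 and by 0.64 ± 0.12, and ADNP, a homeobox protein of chromatin complexes, by 0.58 ± 0.11 and by 0.76 ± 0.11. ZNF217 and CEBPB did not pass, with log2 fold changes of 0.14 ± 0.16 and 0.55 ± 0.20 in PBRT15 and −0.49 ± 0.16 and −0.02 ± 0.20 in PBRT16.

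In membrane traffic, lysosome and glycosylation, 2 of 3 short arm members rose in each line. VPS16, a subunit of the tethering complexes of endosomes and lysosomes, was at 1614 and 2019 in PBRT15 and 1605 and 1822 in PBRT16, against 731 and 713 in parental cells, and TMEM230, a membrane protein of secretory vesicles, rose 1.63-fold and 1.78-fold. Of 17 long arm members, 7 fell in PBRT15 and 6 in PBRT16, and none rose. ATP9A, a lipid flippase of endosomes, was at 1221 and 1606 in PBRT15 and 1460 and 2092 in PBRT16, against 5714 and 4282 in parental cells. VAPB, a contact protein of the endoplasmic reticulum, was at 3066 and 3272 in PBRT15 and 4890 and 4530 in PBRT16, against 4401 and 4767 in parental cells, so that it fell in PBRT15 and overlapped with parental cells in PBRT16.

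In signalling, 5 of 8 short arm members rose in each line and none fell. PRNP, the prion protein, was at 30860 and 27662 in PBRT15 and 16963 and 19143 in PBRT16, against 13443 and 12902 in parental cells. MAVS, the mitochondrial adaptor of RNA sensors, was at 6292 and 6352 in PBRT15 and 4931 and 5397 in PBRT16, against 2742 and 3247 in parental cells. SIRPA, the receptor of CD47, rose 1.51-fold and 1.35-fold. FKBP1A, the binding protein of FK506, rose 1.66-fold in PBRT16 and did not pass in PBRT15, at 0.40 ± 0.13. CSNK2A1, the catalytic subunit of casein kinase 2, was at 7442 and 6586 in PBRT15 and 7243 and 7047 in PBRT16, against 6656 and 7119 in parental cells, with overlapping groups. TRIB3, a pseudokinase of the stress response, did not pass, at 0.54 ± 0.17 and 0.35 ± 0.17.

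The long arm signalling list had 5 rises and 5 falls in PBRT15 and 5 rises and 6 falls in PBRT16. JPH2, which joins the plasma membrane to the endoplasmic reticulum, was at 320 and 216 in PBRT15 and 405 and 368 in PBRT16, against 11.6 and 12.5 in parental cells. SULF2, a sulfatase of heparan sulfate, was at 13450 and 17989 in PBRT15 and 6652 and 8331 in PBRT16, against 2488 and 3201 in parental cells. PKIG, an inhibitor of protein kinase A, was at 1405 and 1449 in PBRT15 and 2459 and 2429 in PBRT16, against 619 and 558 in parental cells. These genes rose in both lines and ran against the median of their arm. PREX1, an exchange factor for Rac, was at 1769 and 1985 in PBRT15 and 1287 and 1308 in PBRT16, against 6688 and 7118 in parental cells. STK4, a kinase of the Hippo pathway, fell by 1.31 ± 0.14 and by 0.99 ± 0.14. GNAS, the stimulatory G protein alpha subunit, was at 42852 and 42812 in PBRT15 and 33696 and 35092 in PBRT16, against 49515 and 49029 in parental cells, and fell in PBRT16. SRC and PTPN1, a tyrosine kinase and a tyrosine phosphatase, did not pass in either line, at −0.39 ± 0.12 and 0.32 ± 0.11 in PBRT15 and −0.13 ± 0.12 and 0.30 ± 0.11 in PBRT16.

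**Figure D5:**
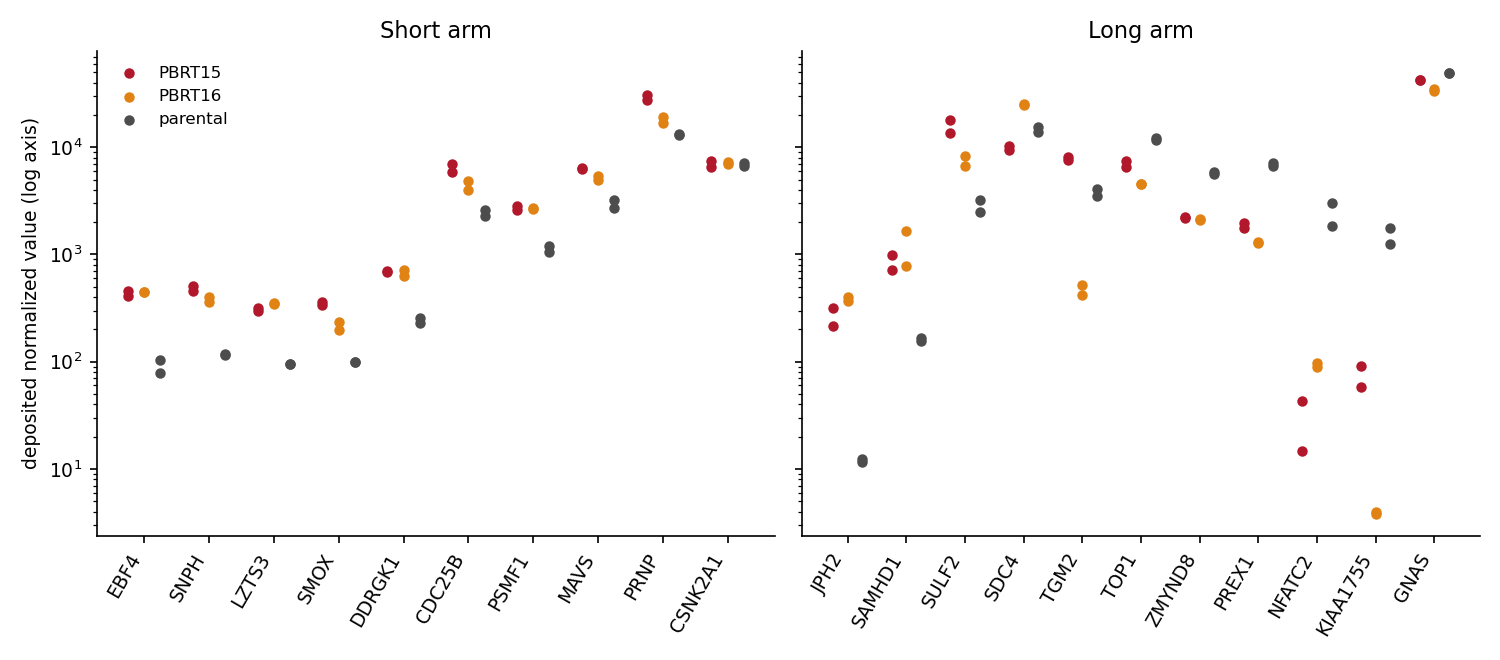
Deposited normalized values of 10 short arm and 11 long arm members in each library, on a log axis, with PBRT15, PBRT16 and parental libraries from left to right for each gene. Of the short arm genes drawn, all but CSNK2A1 have 4 PBRT libraries above both parental libraries, and the long arm genes go in both directions, with TGM2 and SDC4 on opposite sides of parental cells in the PBRT lines.

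In metabolism and transport, 3 of 8 short arm members rose and 1 fell in PBRT15, and 4 rose in PBRT16. SMOX, the spermine oxidase, was at 335 and 362 in PBRT15 and 196 and 233 in PBRT16, against 100.3 and 99.8 in parental cells. CDS2, an enzyme of phosphatidylinositol synthesis, was at 2234 and 2416 in PBRT15 and 2635 and 2525 in PBRT16, against 983 and 1087 in parental cells. SLC23A2, a vitamin C transporter, was the short arm member that fell, at 1677 and 1978 in PBRT15 against 2678 and 2846 in parental cells, and it was at 1647 and 2097 in PBRT16, where it did not pass. IDH3B, a subunit of mitochondrial isocitrate dehydrogenase, rose in PBRT16 (0.47 ± 0.13) and did not pass in PBRT15 (0.34 ± 0.13). Of 6 long arm members, 3 fell in PBRT15 and 2 in PBRT16, and none rose. TOMM34, a chaperone partner of mitochondrial import, was at 779 and 803 in PBRT15 and 1397 and 1294 in PBRT16, against 4399 and 4909 in parental cells.

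Outside the lists of roles, 3 short arm members were among the largest rises. SNPH, which anchors mitochondria in axons, was at 454 and 512 in PBRT15 and 363 and 403 in PBRT16, against 119 and 116 in parental cells. LZTS3, a scaffold protein of the synapse, was at 299 and 320 in PBRT15 and 348 and 350 in PBRT16, against 95.1 and 94.6 in parental cells. DDRGK1, an adaptor of the UFM1 ligase, was at 703 and 686 in PBRT15 and 720 and 636 in PBRT16, against 228 and 257 in parental cells. All were separated from parental cells in every library. On the long arm, KIAA1755 was at 58.6 and 90.5 in PBRT15 and 3.80 and 4.00 in PBRT16, against 1782 and 1261 in parental cells, the largest fall of the long arm members in PBRT16.

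Between the PBRT lines the arms differed little. The median log2 fold change of PBRT16 against PBRT15 was −0.08 on the short arm and 0.04 on the long arm, beside 0.0002 over all genes tested. The long arm median became −0.02 without PBRT15 replicate 2 and −0.004 without PBRT16 replicate 1. Of the short arm members 4 were lower and 0 higher in PBRT16, and of the long arm members 6 were higher and 10 lower. Of all genes tested, 7.50% were higher and 8.28% lower in PBRT16 than in PBRT15. The 4 short arm members lower in PBRT16 were PRNP, SMOX, RBCK1 and GPCPD1, a phosphodiesterase of glycerophosphocholine at 141 and 146 in PBRT16 against 599 and 619 in PBRT15. Leaving out any PBRT library gave 0 short arm members lower, and leaving out either parental library gave 1. The 10 long arm members lower in PBRT16 became 2 or 3 without any single library.

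TGM2 and SDC4 passed the test in opposite directions in the PBRT lines. TGM2, transglutaminase 2, which crosslinks proteins, was at 420 and 519 in PBRT16 and 8047 and 7607 in PBRT15, against 3518 and 4058 in parental cells, with a difference of −4.06 ± 0.16 between PBRT16 and PBRT15 on the log2 scale. SDC4, the cell surface proteoglycan syndecan 4, was at 24769 and 25588 in PBRT16 and 9493 and 10198 in PBRT15, against 13771 and 15488 in parental cells, with a difference of 1.36 ± 0.12. ZNFX1, a helicase with zinc fingers, was lower in PBRT16 than in PBRT15, at 2881 and 2149 in PBRT16 against 5325 and 4980 in PBRT15. By overlap alone, GPCPD1, ZNFX1 and ZNF335 also had both PBRT16 libraries below and both PBRT15 libraries above the parental libraries, and each was lower in PBRT16 than in PBRT15.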

How the data were processed

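RNA of the 6 libraries was sequenced as stranded, paired-end reads. Per the labels and the study's methods, reads were aligned to GRCh38 and quantified with RSEM, with Picard and DESeq2 also named. The aligner was STAR 2.6.1a by the labels, while the study's reporting summary lists another version of STAR. The authors deposited 1 normalized signal value per gene. The values are not whole, and how they were normalized is not stated in the sources used here, so depth per library is unknown, no count test was run, and shifts of single genes from it cannot be undone. IDs (60617, besides 45 pseudoautosomal copies) were matched to GENCODE v44 without their version (60357 IDs, of which 49802 kept their version number), a later release than the authors'.

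The 16555 genes tested had 2 or more libraries at 10 or above, after scaling to the library total, and summed to 15 or more. The 3 groups were fitted together on log2(value + 1) with limma 3.58.1 in R 4.3.3 (3 residual degrees of freedom, 1.89 added by the empirical Bayes step); fold changes are on that scale. The script was tested on simulated data. Summaries used Python 3.11.15. The naming rule took, per arm and contrast, the 4 largest rises and 4 largest falls among members past an adjusted p of 0.05 whose groups did not overlap, a fixed set of role list members, and genes at the edges of the rule. Some genes that it took are not reported here. Members, lists and tests were chosen with earlier results of these data known. Alternatives were other scalings, pseudocounts of 0.5 and 5, no filter, 4 libraries in the fit, spread by level, a replicate block, another minimum for members and leaving out each library.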

Additional observations from a re-analysis of the deposited data

Results flagged for a closer look

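TGM2 was higher in PBRT15 and lower in PBRT16 than in parental cells, and the lines differed by −4.06 in log2 fold change (PBRT16 against PBRT15), past an adjusted p of 0.05 by limma over all genes tested. SDC4 was higher in PBRT16 and lower in PBRT15 than in parental cells, and the lines differed by 1.36, past the same threshold. These 2 of the 161 members were called in opposite directions in the PBRT lines, beside 130 of all 16555 genes tested. Nothing is read from this count.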

How the results depend on the processing

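The signs of both arm medians in both comparisons with parental cells were the same under every alternative run. Medians moved by more than the replicate SD in a few. Scaling to the library total gave a short arm median of 0.65 and a long arm median of −0.56 in PBRT15, a long arm median of −0.40 in PBRT16, and 0.079 on the long arm in PBRT16 against PBRT15. A minimum 3 times as high for members gave long arm medians of −0.53 in PBRT15 and −0.40 in PBRT16, a short arm median of 0.66 and a short minus long difference of 1.05 in PBRT16, and 2 short arm members lower in PBRT16 than in PBRT15. With only the 4 libraries compared in the fit, 9 long arm members rose in PBRT16, and PBRT16 against PBRT15 had 1344 calls over all genes (2612 with 6 libraries), with 1 short arm member lower and 3 long arm members higher and 2 lower. With no filter on low values, 0 short arm members fell and 31 long arm members fell in PBRT15, 7 long arm members rose in PBRT16, and PBRT16 against PBRT15 had 1390 calls, with 1 short arm member lower and 1 long arm member higher and 2 lower. A pseudocount of 5 gave 1 short arm fall in PBRT16. A spread that follows expression level gave 2 such falls and, between the PBRT lines, 1 short arm member higher and 7 lower and 18 long arm members higher. The cause was not tested in any of these.

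Samples with the same replicate number correlated by 0.02 (PBRT15 and parental), 0.04 (PBRT16 and parental) and 0.14 (PBRT16 and PBRT15) in their deviations from the group means over all genes tested, and by −0.061, 0.0025 and 0.27 over genes at the members' level. With 2 libraries per line and no label that ties a number to a shared culture or day, the numbers were not taken as pairs. With a replicate block, 1 short arm member fell in PBRT16, and 1 short arm and 6 long arm members were lower in PBRT16 than in PBRT15.

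Leaving out each library gave these ranges. In PBRT15 against parental, calls over all genes were 3847 to 5843, the short arm falls 0 to 1, the long arm median −0.53 to −0.47, the long arm falls 28 to 49 and the short minus long difference 1.15 to 1.28. In PBRT16 against parental, calls over all genes were 3748 to 6222, the short arm median 0.50 to 0.67, the short arm rises 18 to 25, the short arm falls 0 to 1, the long arm median −0.42 to −0.35, the long arm rises 7 to 10, the long arm falls 30 to 44 and the difference 0.91 to 1.01. In PBRT16 against PBRT15, calls over all genes were 780 to 1710, short arm members lower 0 to 1, long arm members higher 1 to 4 and lower 2 to 3, the long arm median −0.017 to 0.081 (−0.017 without PBRT15 replicate 2 and −0.0044 without PBRT16 replicate 1) and the difference −0.16 to −0.048. For the members named, 156 of the leave-one-out results lost their call, 4 gained it and none changed sign; of the other alternatives, 61 lost it and 20 gained it. Depth per library is unknown, so counting error could not be given.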
